A study of Oryza sativa with 3 samples.

Results

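The heavy-metal ATPases (HMA) and metal tolerance proteins (MTP) of rice were followed in roots exposed to vanadate. The members were the loci of HMA2 (Os06g0700700), HMA3 (Os07g0232900), HMA4 (Os02g0196600), HMA5 (Os04g0556000), HMA9 (Os06g0665800), MTP1 (Os05g0128400), MTP8.1 (Os03g0226400) and MTP9 (Os01g0130000). They were taken by locus ID from the probe names, which gave 8 of 29859 loci and 13 of 42418 gene probes on the array. Roots of 6-day-old seedlings of cultivar TN67, germinated at 37 °C and grown at 26 °C in darkness, were exposed to 1 mM vanadate or to water. Each of the 3 biological replicates was hybridised as vanadate (Cy5) against water (Cy3) on its own array, with RNA from 1 h and 3 h of exposure pooled beforehand. The dyes were exchanged on 0 arrays according to the labels, so a dye effect and a vanadate effect cannot be told apart.

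HMA proteins are P-type ATPases of the heavy-metal branch, which pump metal ions across membranes and pass through an intermediate phosphorylated on an aspartate. Vanadate resembles phosphate and blocks P-type ATPases at that step of the cycle. MTP proteins belong to the cation diffusion facilitators, which move zinc or manganese out of the cytoplasm in exchange for protons and use no ATP. In rice roots HMA2 loads zinc and cadmium toward the shoot and HMA3 stores cadmium in vacuoles. HMA4 stores copper in vacuoles, HMA5 loads copper into the xylem and HMA9 exports copper and other metals from cells. MTP1 stores zinc and MTP8.1 manganese in vacuoles, and MTP9 moves manganese from the root's barrier layers toward the stele. The arrays measured transcripts and not the activity of these proteins.

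A member is called here where limma gave an adjusted p under 0.05 over all tested probes of the array. All log2 ratios are vanadate over water, so a positive value is a higher signal under vanadate. Channel levels are log2 intensities after normalization. They were not set against each other between probes, except where the levels of marker loci were summed. Of the 8 members, all were tested on at least 1 probe, and 12 of their 13 probes passed the filter on dim signal. HMA9 rose, HMA5, HMA3 and MTP9 fell, and HMA2, HMA4, MTP1 and MTP8.1 were not called. Calls were common over the array as a whole, with 29.1% of the 22150 tested loci higher, 20.6% lower and 49.7% called in either direction. These shares may include dye effects. The members' 4 calls of 8 (50%) stood at the share of the array, with 12.5% higher and 37.5% lower. The median log2 ratio was -0.005 over the members and 0.023 over all tested loci, and the median size of the log2 ratio regardless of sign was 0.267 and 0.268. With 8 members the shares by direction rest on 1 and 3 loci, and their difference from the array was not tested.

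**Figure D1:**
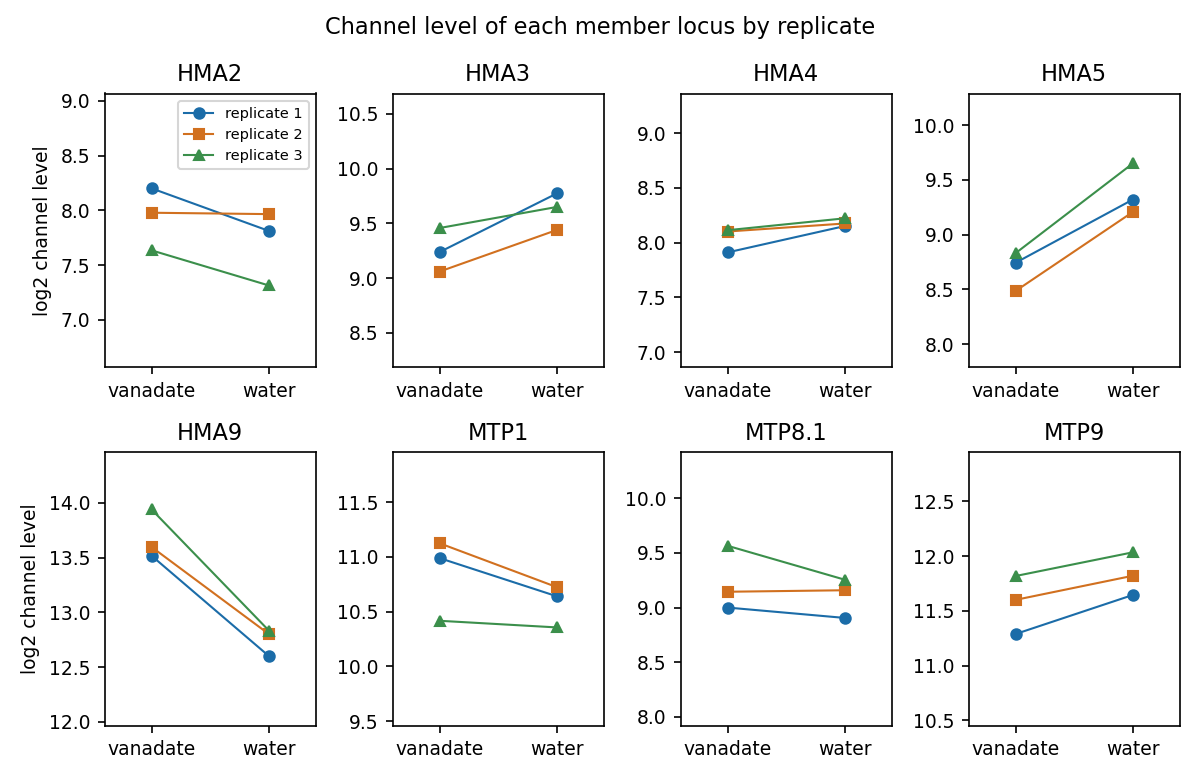
Log2 channel level of each member locus in vanadate (left) and water (right), 1 line for each replicate, for the probe that stands for the locus. Each panel spans the same range of levels, so slopes can be compared. HMA9 was higher in vanadate on every line and HMA5 lower on every line, while the lines of MTP8.1 did not all run the same way.

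Copper ATPases held both the strongest rise and the strongest fall among the members. HMA9, a copper exporter of the plasma membrane, had levels of 13.52, 13.60 and 13.94 in vanadate, against 12.60, 12.80 and 12.83 in water (replicates 1, 2 and 3). Every vanadate level lay above every water level. Its log2 ratios were 0.92, 0.80 and 1.11, with a mean of 0.94 ± 0.16 (SD, n = 3), which is a 1.92-fold rise (SE 0.09, limma adjusted p = 0.000393). This mean was higher than those of 90.9% of the tested loci. The 95% interval of the mean ran from 0.72 to 1.16. HMA9 had 1 probe on the array, as had HMA2, HMA3 and HMA4, so no other probe could be set beside it.

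HMA5, which loads copper into the xylem, moved the other way. Its brighter probe had levels of 8.74, 8.48 and 8.83 in vanadate, against 9.32, 9.21 and 9.65 in water. Every vanadate level lay below every water level. The log2 ratios were -0.58, -0.72 and -0.82, with a mean of -0.71 ± 0.12 (SD, n = 3), a 1.63-fold fall (SE 0.09, limma adjusted p = 0.000976). Only 3.93% of tested loci had a lower mean. The 95% interval ran from -0.91 to -0.50. A second, dimmer probe of HMA5 had levels of 6.80, 6.71 and 6.83 in vanadate, against 7.08, 7.15 and 7.12 in water, again without overlap. Its vanadate channel was well above background on 0 of 3 arrays and its water channel on 3. It passed the filter only through water, so its call is not counted as support. Its water mean stood 1.26-fold above its vanadate mean. Setting each vanadate level to no less than the lowest level well above background gave the same 1.26-fold. This value is not a minimum for the fall, and it is open to dye bias. In the authors' deposited table, which subtracts background, adds no offset and is not centred, the mean log2 ratio of the brighter probe was -1.07. With the processed signals centred on their median it was -0.92.

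HMA4, the vacuolar copper ATPase, had levels of 7.91, 8.1 and 8.11 in vanadate, against 8.15, 8.18 and 8.22 in water. The levels did not overlap, but the gap between the groups was small, and the mean log2 ratio of -0.14 ± 0.09 (SD, n = 3) was not called (limma adjusted p = 0.189). Its 95% interval ran from -0.33 to 0.05. HMA4, HMA5 and HMA9 were the 3 members of 8 whose vanadate and water levels did not overlap, against 40.3% of all tested loci.

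Differences between members on the same array do not depend on how an array is centred, though they do depend on the loess curve. The log2 ratio of HMA9 exceeded that of HMA5 by 1.49, 1.52 and 1.93 on replicates 1, 2 and 3. It exceeded that of HMA4 by 1.16, 0.87 and 1.22. The sign was the same on all 3 arrays for both pairs, while an exact two-sided sign-flip permutation test over 3 arrays cannot go below p = 0.25. The size of these differences is therefore a description with n = 3 arrays.

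Zinc and cadmium ATPases comprised 1 member that fell and 1 that was not called. HMA3, the vacuolar pump that holds cadmium in roots, had levels of 9.24, 9.06 and 9.46 in vanadate, against 9.77, 9.44 and 9.65 in water. Vanadate was lower than water on each array, but the highest vanadate level lay above the lowest water level. The log2 ratios were -0.54, -0.38 and -0.19, with a mean of -0.37 ± 0.17 (SD, n = 3), a 1.29-fold fall (SE 0.09, limma adjusted p = 0.0182). The call was lost without replicate 1 and without replicate 2 (limma adjusted p = 0.0761 in each case), and with the channels as separate samples (limma adjusted p = 0.137).

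HMA2, which carries zinc and cadmium toward the shoot, had levels of 8.20, 7.98 and 7.63 in vanadate, against 7.81, 7.97 and 7.31 in water. The ratio was above 0 on all 3 arrays, at 0.39, 0.01 and 0.32, but on replicate 2 the channels were almost level. The mean of 0.24 ± 0.20 (SD, n = 3) was not called (limma adjusted p = 0.0873), and its 95% interval ran from 0.001 to 0.48. With the processed signals the mean was 0.41 and was called (limma adjusted p = 0.0474). HMA2 exceeded HMA3 in log2 ratio by 0.92, 0.39 and 0.51 on replicates 1, 2 and 3.

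MTP1, the vacuolar zinc transporter, was measured on a pair of probes that gave like values. The probe of higher intensity had levels of 10.99, 11.12 and 10.42 in vanadate, against 10.64, 10.72 and 10.36 in water. The levels overlapped, and replicate 3 was lowest in both channels. The log2 ratios were 0.35, 0.40 and 0.06, with a mean of 0.27 ± 0.18 (SD, n = 3), which missed the threshold (limma adjusted p = 0.0561). The other probe had log2 ratios of 0.28, 0.29 and 0.13 and a mean of 0.24 ± 0.09 (SD, n = 3), which also missed it (limma adjusted p = 0.0511). Replicate 3 gave the smallest ratio on both probes. Without replicate 3, that is within the slide shared by replicates 1 and 2, the mean was 0.37 and was called higher (limma adjusted p = 0.0164). In the authors' deposited table, which is not centred, the mean of the brighter probe was 0.09. With the processed signals centred on their median it was 0.24.

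Of the manganese transporters, MTP9 fell and MTP8.1 was not called. MTP9 had 3 probes, of which the brightest had levels of 11.29, 11.60 and 11.82 in vanadate, against 11.65, 11.82 and 12.04 in water. Vanadate was lower than water on each array, but the levels of the replicates were spread widely enough that the groups overlapped. The log2 ratios were -0.36, -0.22 and -0.22, with a mean of -0.26 ± 0.08 (SD, n = 3), a 1.20-fold fall (SE 0.08, limma adjusted p = 0.0328). This call was lost under 7 of 13 alternatives, among them the removal of replicate 1, 2 or 3 (limma adjusted p = 0.114, 0.133 and 0.0503). The other probes of MTP9 had means of -0.14 and -0.17 and were not called (limma adjusted p = 0.182 and 0.124), although all 9 ratios of the 3 probes were below 0. By their names the brightest probe belongs to a transcript model of 5'UTR and coding sequence, and the other probes to coding sequence and 3'UTR.

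MTP8.1 had levels of 9.00, 9.14 and 9.56 in vanadate, against 8.90, 9.16 and 9.25 in water. The levels overlapped, and the log2 ratios of 0.09, -0.01 and 0.31 crossed 0. The mean of 0.13 ± 0.16 (SD, n = 3) was not called (limma adjusted p = 0.279), with a 95% interval from -0.09 to 0.35. A second probe of MTP8.1 failed the background flag in vanadate and in water on each of the 3 arrays and was not tested. Of the 8 members, 7 had the same sign on all 3 arrays, MTP8.1 being the exception, against 73.2% of all tested loci.

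**Figure D2:**
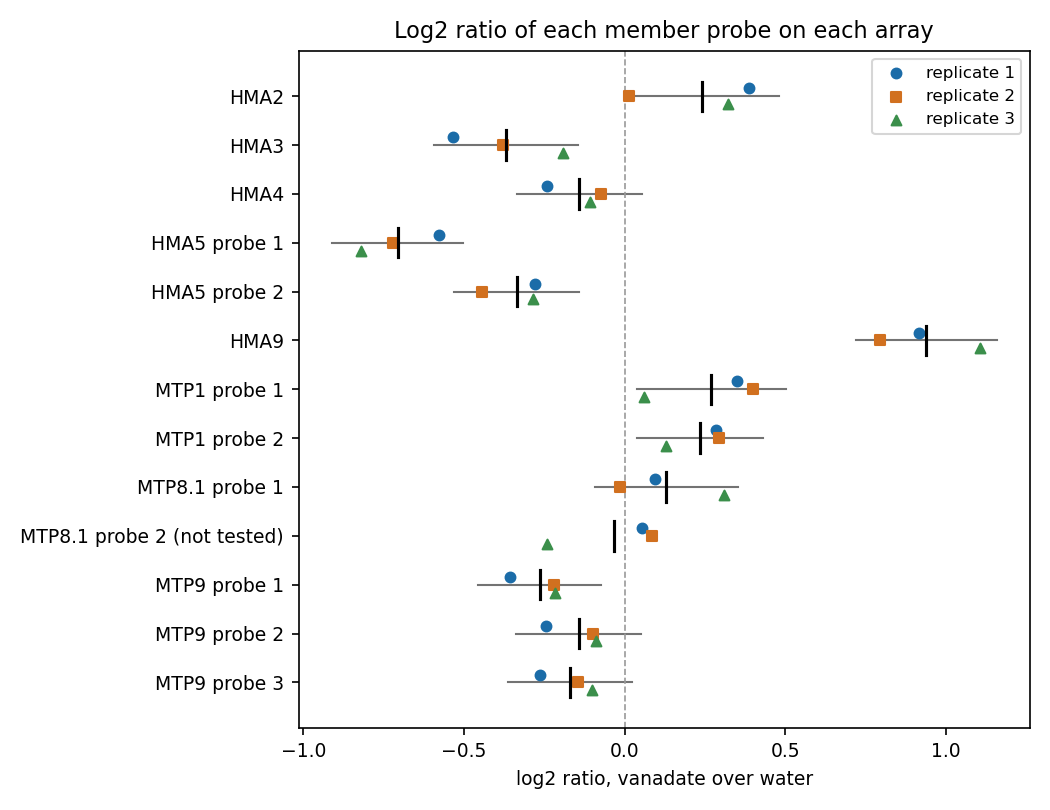
Log2 ratio, vanadate over water, of all 13 member probes, with 1 point for each replicate, a black bar at the mean and a grey line for limma's 95% interval where the probe was tested. HMA9 lies at 0.80 to 1.11 and the brighter HMA5 probe at -0.82 to -0.58, while the points of both MTP1 probes and of the 3 MTP9 probes stay on 1 side of 0.

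MTP9 is known from the exodermis and endodermis of rice roots. A list of 3 root marker loci, drawn up for roots as a whole and not for these layers, was read beside it. Os02g0745100 and Os03g0107300, the silicon transporter loci of that list, were called lower at -2.06 and -1.02 (limma adjusted p = 0.000399 and 0.00691). Their part in the MTP9 value was not tested, and in whole roots fewer cells of a type and less RNA per cell cannot be told apart. The third root locus, Os02g0662000, had 1 probe at 0.68 and 1 at -0.28, both called. On every array the 3 root loci passed the background flag in vanadate and in water. Their summed level on the linear scale was 219350, 220605 and 248616 in vanadate, against 142455, 136240 and 204963 in water. Most of this sum came from the brighter probe of Os02g0662000. Without that locus the sum was 2766, 5801 and 5749 in vanadate, against 17231, 18243 and 17716 in water. The 5 green shoot loci summed to 888, 743 and 821 in vanadate, against 688, 612 and 3113 in water. The high water value was that of replicate 3. Levels were taken after the offset of 50 was added, which weighs most on dim loci. On all 3 arrays 3 of these 5 loci were well above background in vanadate, against 1 in water. A locus was counted there by whichever of its probes passed on most arrays, and the channels differ in dye. On replicate 3 the ratios of MTP1 and HMA3 lay nearer to 0 than on the other arrays, those of HMA9, HMA5 and MTP8.1 lay farther from it, and those of HMA2, HMA4 and MTP9 lay between or level with them. The part of the shoot loci in these ratios was not tested.

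**Figure D3:**
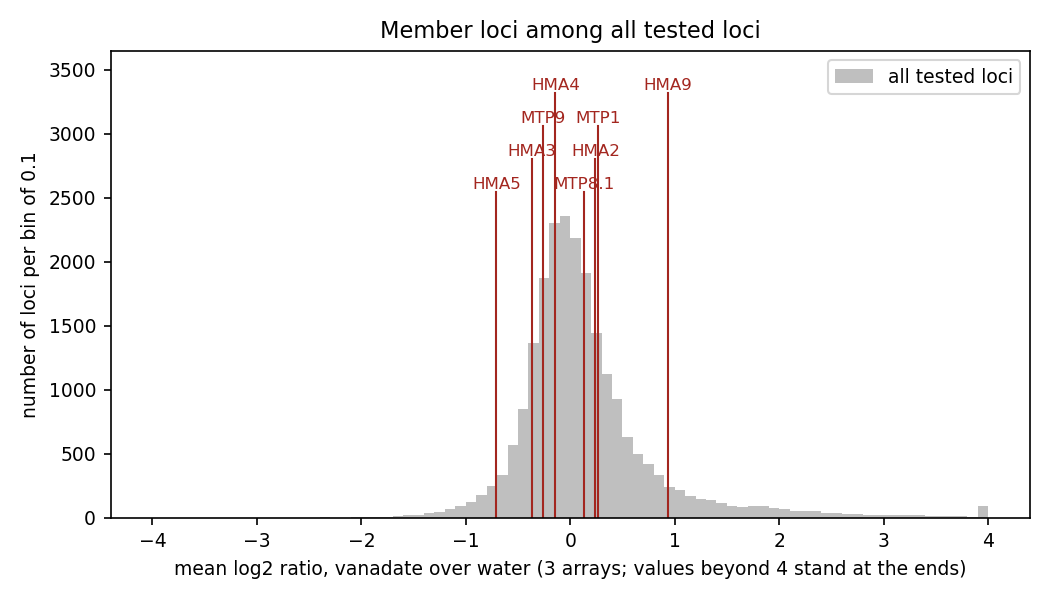
Number of tested loci by mean log2 ratio, vanadate over water, in grey, with the 8 members marked by red lines whose heights carry no value. HMA5 at -0.71 and HMA9 at 0.94 lie toward the flanks, and the other 6 members lie between -0.37 and 0.27.

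The wider families were read from lists of 17 further loci drawn from background knowledge. The files pair none of these IDs with a name, so they are given by ID. Of these loci 13 were tested, and 3 were called higher, 3 lower and 7 not called, a called share of 46.2% against 49.7% over the array. Of the list of other heavy-metal ATPases, 3 of 4 loci were tested, with 0 higher, 1 lower and 2 not called. Os08g0486100 fell, at log2 ratios of -0.40, -0.22 and -0.54 (mean -0.38, limma adjusted p = 0.0144). That call was lost under 3 of 13 alternatives: without replicate 1 (limma adjusted p = 0.0546), with the processed signals (0.0744) and with the channels as separate samples (0.107).

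Of the list of other metal tolerance proteins, 6 of 7 loci were tested, with 2 higher, 1 lower and 3 not called. Os01g0837800 rose most, with levels of 10.22, 10.63 and 10.16 in vanadate, against 9.07, 9.74 and 9.23 in water. The levels did not overlap, and the mean log2 ratio was 0.99 ± 0.14 (SD, n = 3), a 1.98-fold rise (limma adjusted p = 0.000283). Its second probe was also called, at 1.29 ± 0.09 (SD, n = 3), a 2.44-fold rise (limma adjusted p = 6.2e-05). Os08g0422200 rose at a mean of 0.38 (limma adjusted p = 0.0147), a call kept under 7 of 13 alternatives and lost without replicate 1 (limma adjusted p = 0.0659) and without replicate 2 (limma adjusted p = 0.0843). Os02g0832700 fell at a mean of -0.31 (limma adjusted p = 0.0235), a call lost under 5 of 13 alternatives, among them without replicate 2 (limma adjusted p = 0.129) and without replicate 3 (limma adjusted p = 0.0739). Its second probe was not called at -0.16.

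The third list held loci for copper and manganese uptake and copper delivery in the cytoplasm. Of its 6 loci, 4 were tested, with 1 higher, 1 lower and 2 not called. Os08g0205400 rose at log2 ratios of 0.78, 0.81 and 0.84, the narrowest spread among the called loci of these lists, with a mean of 0.81 ± 0.03 (SD, n = 3, limma adjusted p = 0.000347). Its levels varied more between arrays than its ratios did, at 13.00, 13.24 and 12.31 in vanadate, against 12.22, 12.43 and 11.47 in water. With the channels as separate samples its call was lost (limma adjusted p = 0.117). Os07g0257200 fell at -0.68, -0.26 and -0.45 (mean -0.46, limma adjusted p = 0.0103), and this call held under all 13 alternatives. In the authors' deposited table, with background subtracted, no offset and no centring, its mean was -1.05. With the processed signals centred on their median it was -0.90.

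**Figure D4:**
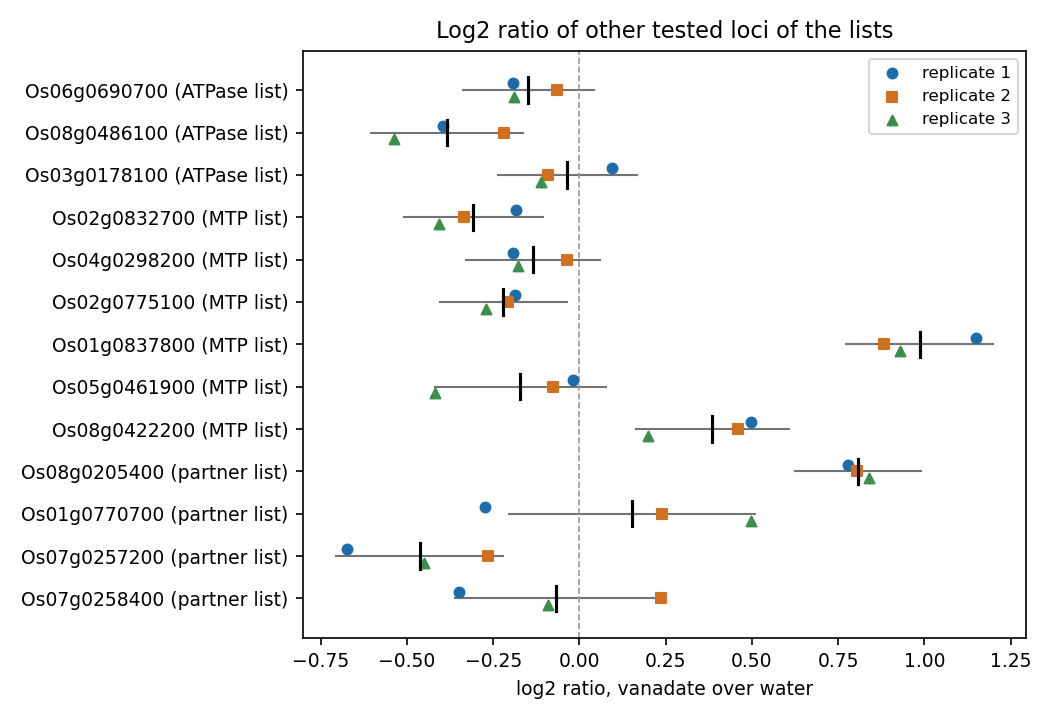
Log2 ratio, vanadate over water, of the 13 other tested loci on each array, with a black bar at the mean and a grey line for limma's 95% interval. Os01g0837800 and Os08g0205400 lie at 0.78 to 1.15, and Os07g0257200 and Os08g0486100 lie below 0 on every array.

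HMA9 had the largest called ratio of the members, and the loci most like it were sought by Euclidean distance over its 3 log2 ratios. They were Os03g0664900, Os11g0516000 and Os03g0859800, at distances of 0.012, 0.037 and 0.045. With 3 arrays such likeness is common: 1038 tested loci lay within 0.5 of HMA9.

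**Figure D5:**
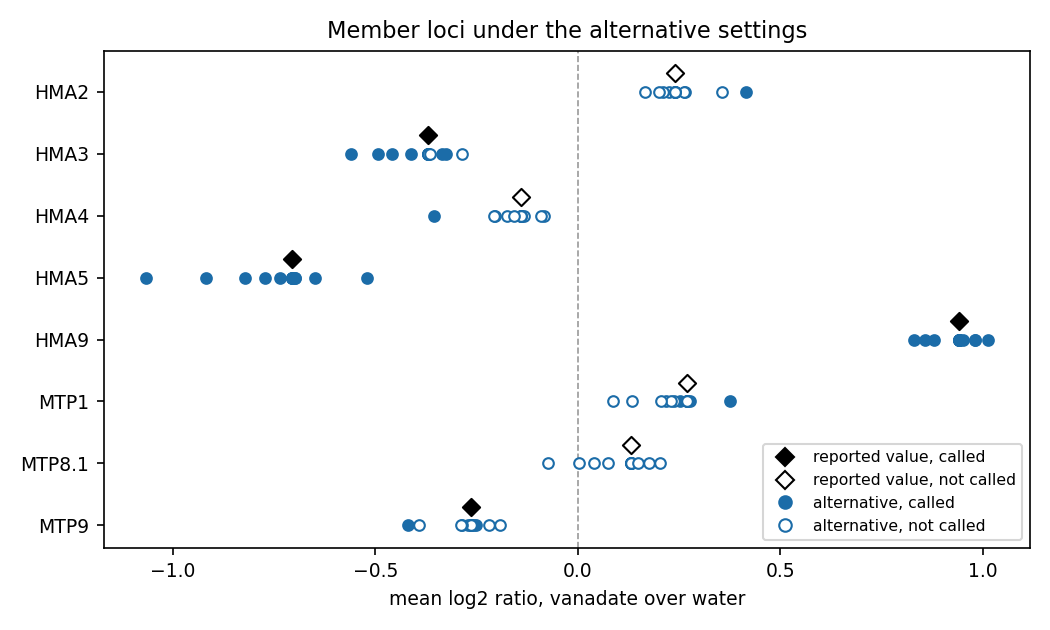
Mean log2 ratio of each member as reported (diamonds) and under 13 other settings of the processing (circles), filled where called. HMA9 and HMA5 were called in the same direction in all 13, HMA3 in 10 and MTP9 in 6, while MTP8.1 was called in 0. For HMA5 the mean over probes includes its dimmer probe and is not counted as support.

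The other settings moved the members unequally. HMA9 ranged from 0.83 to 1.01 and HMA5 from -1.07 to -0.52 over the 13 alternatives, both called throughout. The -0.52 of HMA5 came from the mean over probes, which includes its dimmer probe, so that alternative is not counted as support. HMA3 ranged from -0.56 to -0.29 and MTP9 from -0.42 to -0.19. HMA2 ranged from 0.17 to 0.41 and was called in 1 alternative, and HMA4 from -0.35 to -0.08 and was called in 1. MTP1 ranged from 0.09 to 0.37 and was called in 3. The sign of MTP8.1 turned in the authors' deposited table, where its mean was -0.075. That table is not centred, and the median of its tested loci was -0.114, against 0.023 here. Of all called loci 58.5% were higher here, against 42.1% in the authors' deposited table and 70.0% with the channels as separate samples.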

How the data were processed

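Per the file headers, the spot intensity values come from Agilent Feature Extraction, version 10.7.1.1: median signal and local background, and processed signals that are background-subtracted and dye-normalized. The table deposited by the authors gives log2 ratios, and at least 99.9% of matched values lay within 0.001 of processed red over green. The probes' genome build is not given in the sources used here.

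Median signals were corrected with normexp (offset 50) and normalized by loess within arrays in limma 3.58.1 under R 4.3.3. Control spots had weight 0 and then left, with spots flagged as outliers (0 of the members' spots). A probe was tested with a value on all 3 arrays and at least 1 channel well above background on at least 2 arrays, which kept 31159 of 42418. The mean log2 ratio was tested against 0 with lmFit and eBayes, with Benjamini-Hochberg adjustment. The fit was also run on simulated log2 ratios with few changed probes and no dye, slide or loess step. That run does not check the fit where calls are as common as here. A locus, microRNA loci included, stands by the brightest of its tested probes (mean over arrays). Channel levels followed loess and Aquantile. SE and intervals are limma's.

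Replicates 1 and 2 shared a slide and scan day, and replicate 3 had its own. Pearson's r across probes was 0.927 for replicates 1 and 2, 0.891 for 1 and 3, and 0.921 for 2 and 3. Gene spots well above background made up 73.7% to 76.1% in vanadate and 69.0% to 75.3% in water, with 0 saturated. The number of arrays limits precision.

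All 8 members, up to 3 called loci of each list and the 3 loci most like the strongest member are named. Members and lists were chosen with earlier results of these data known. The reference table of assembly ASM3414082v1 lists HMA2, HMA4, HMA5, HMA9 and MTP1 as synonyms of 1 gene each, on the chromosome of the locus ID. HMA3, MTP8.1, MTP9 and the roles given are background knowledge. Alternatives were other signals, tables, normalizations, filters, spread models and pairings, slide as a block, probe means and leaving out each replicate.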

Additional observations from a re-analysis of the deposited data

How the results depend on the processing

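The calls of HMA9 and HMA5 kept their direction and their side of the threshold under all 13 alternatives, of which the mean over probes includes the dimmer HMA5 probe. The alternatives are not independent checks. Several left the mean of HMA9 at 0.94, so its direction could not change there, and all kept vanadate in Cy5 and water in Cy3. Members called higher numbered 2 in place of 1 with the processed signals, without background correction and as the mean over probes, and 1 to 2 on leaving out each replicate. Members called lower numbered 1 in place of 3 with the channels as separate samples, and 1 to 2 on leaving out each replicate. They numbered 2 with the processed signals, under median centring and as the mean over probes, and 4 in the authors' value table. Of the further loci, those called lower numbered 5 in the authors' value table, 5 with slide as a block and 1 with the channels as separate samples, in place of 3, and those called higher 1 in place of 3 in that last setting. In the other alternatives the further loci called lower numbered 2 to 4. Those called higher numbered 2 to 3 in every alternative but the channels as separate samples. Over the array, 6443 loci were called higher and 4573 lower. In the authors' value table, 6863 were lower, under median centring 4216 were higher, and with the channels as separate samples 3371 were higher and 1448 lower. Leaving out each replicate gave 5023 to 5906 higher and 2793 to 3764 lower, the fewest lower without replicate 2. MTP8.1 turned to -0.075 in the authors' value table (limma adjusted p = 0.62). The cause of these shifts was not tested. Leaving out a replicate leaves fewer arrays from which the spread is estimated. With slide as a block the spread rests on replicates 1 and 2. Each array pairs both channels of a replicate, so the reported fit is the paired one, and the channels as separate samples, with no replicate block, give the unpaired one. With an offset of 50, ratios of dim probes are drawn toward 0.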
